A study of Mus musculus with 24 samples.

Results

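Krüppel-like factors are transcription factors that bind GC-rich and CACCC elements through C-terminal zinc fingers. Their amino-terminal parts differ: some recruit acetylases and activate, some recruit the corepressor CtBP, and some recruit Sin3 and histone deacetylases. Several are encoded by early response genes, and the family is known in bone for roles in osteoblast differentiation and in responses to hormones and growth factors. The genes described here are Klf2, Klf3, Klf4, Klf5, Klf6, Klf7, Klf9, Klf10 and Klf13, chosen by symbol with earlier results of these data known. They make 9 of the 49120 genes in the summed tables. Klf2, Klf4, Klf5, Klf6 and Klf7 belong to the activator branch, Klf3 to the CtBP-binding branch, and Klf9, Klf10 and Klf13 to the Sin3-binding branch.

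The libraries came from Ocy454 cells, a single mouse osteocytic line, and were made from total RNA. The 8 groups were both agents, lysophosphatidic acid (LPA), 1,25-dihydroxyvitamin D (1,25D) and vehicle, each for 2 h or 8 h, with 3 libraries in each group and 24 in all. LPA is a lysophospholipid that acts through G protein-coupled receptors, and 1,25D is the active vitamin D hormone, which acts through the nuclear receptor Vdr. The series was made to follow FGF23 synthesis and the signalling routes behind it, and the sources used here give no doses. Nothing in the labels says that the 3 libraries of a group were separate cultures, so the p-values measure the spread between these libraries, which may be technical. In RNA from whole cultures, fewer cells with a transcript and less of it per cell cannot be told apart.

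The titles and the deposited tables' own names carry opposite letters for the single treatments, and a vitamin D target goes against the titles. Cyp24a1, the 24-hydroxylase that vitamin D induces, had 87 counts summed over the 3 both-agent libraries at 8 h, 102 over those labelled LPA and 1 over those labelled 1,25D, against 1 in vehicle. Vdr, which 1,25D is known to raise in many bone cells, had, in CPM (counts-per-million), 223 ± 16 with both agents at 8 h, 254 ± 6.9 labelled LPA and 72.3 ± 1.9 in those labelled 1,25D, against 125 ± 12 CPM in vehicle (SD, n = 3 each). Single treatments are therefore written as "labelled LPA" and "labelled 1,25D" throughout, and each direction below holds for the library so labelled, not for a known agent.

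Depth was even, at 32964439 to 33842037 estimated counts per library, and mitochondrial transcripts took 9.01 to 16.92% of them, the highest share being that of vehicle replicate 2 at 8 h. Among defining osteocyte genes, Mepe had 0 to 1 counts per library, Sost 0 to 7 and Fgf23 0 to 5, whereas Dmp1 stood at 1.9 to 4.8 CPM and Pdpn at 50.5 to 105 CPM. Of the other cell types, the 6 endothelial markers together gave 1.84 to 3.49 CPM. They were led by Cdh5 at 1.44 to 2.52 CPM (47 to 90 counts), with Kdr at 0 to 5 counts. Among the defining genes of 3 further types, Adipoq, Myod1 and Krt5 had at most 4 counts in a library. The summed markers of adipocytes gave 0.0289 to 0.709 CPM, those of skeletal muscle 1.64 to 3.91 CPM, led by Acta1 at 1.55 to 3.66 CPM, and those of epithelium 0.859 to 2.37 CPM, led by Cdh1 at 0.434 to 2.07 CPM. The 6 macrophage and blood markers summed to 16 to 23.7 CPM, most of it Cd68 at 10.6 to 17.2 CPM. At 8 h, replicate 2 of both agents and replicates 2 and 3 of vehicle stood apart from their groups. The median deviation of the 9 factors from their group mean, on the log2 CPM scale, was -0.2 in the both-agent library, -0.5 in vehicle replicate 2 and 0.39 in vehicle replicate 3. The genes with the most GC-rich transcripts deviated the same way there, with medians of -0.35, -0.56 and 0.36. Mitochondrial transcripts took 12.55% of counts in that both-agent library, 16.92% in vehicle replicate 2 and 10.15% in vehicle replicate 3. The part of GC content and of mitochondrial RNA in the 8 h results was not tested beyond the correction for GC content given below.

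**Figure D1:**
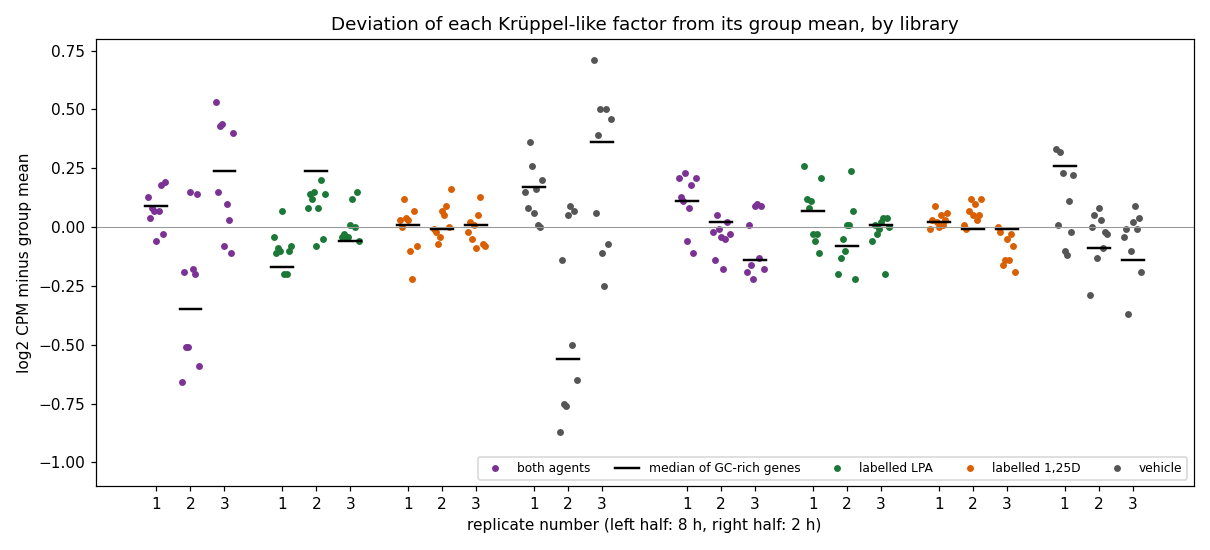
Deviation of each of the 9 factors (points) from its group mean in log2 CPM, for every library, with the median deviation of GC-rich genes as a black bar. Groups run from both agents to vehicle within each time, 8 h on the left and 2 h on the right. The replicate 2 libraries of both agents and of vehicle at 8 h lie lowest, with medians of -0.2 and -0.5 over the 9 factors.

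All 9 factors were above the filter on low counts, with a lowest count of 109 (Klf9) and a highest of 8452 (Klf6) in any library. Compared per length, as transcripts-per-million (TPM) averaged over the 24 libraries, the order was Klf10 at 54.8, Klf6 at 51.5, Klf3 at 38.2, Klf5 at 13.3, Klf4 at 9.31, Klf2 at 6.56, Klf13 at 5.55, Klf7 at 5.01 and Klf9 at 1.95 TPM. In vehicle at 2 h, Klf6 (55.2 ± 1.3 TPM) and Klf10 (49 ± 3.9 TPM) led. There the SDs of Klf10 and Klf3 (42.2 ± 2.9 TPM) met, and those of Klf5 (10.1 ± 1.9), Klf4 (8.16 ± 2.2), Klf2 (7.83 ± 2), Klf13 (6.6 ± 1.1) and Klf7 (5.15 ± 1.3 TPM) overlapped from each neighbour to the next (n = 3 each). Klf9 stood lowest at 1.51 ± 0.16 TPM. Of the 6 transcripts of Klf10, Klf10-205 held 49.87% of its level on average and Klf10-201 held 40.42%. Klf10-205 is annotated at only 536 bases, against 4225 for the main transcript of Klf6. By counts, Klf10 averaged 68.3 CPM, below Klf6 at 136 and Klf3 at 71.1 CPM. Klf6 gave 68.54% of its level to its main coding transcript and 25.58% to one annotated with a retained intron, and that second share ran from 19.31 to 32.11% over the group means.

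The genes lie on separate chromosomes, and RefSeq windows of 250 bases before the start (GRCm38.p6) were at hand for 7 of them, all but Klf5 and Klf10. The windows of 5 are shown, those of Klf2, Klf4, Klf6, Klf9 and Klf13. The other windows are left out because that of Klf3 runs far into the gene as GENCODE places it, and that of Klf7 lies wholly inside it. Both are still counted among the 7 below. Each runs 5′ to 3′ on the gene's own strand. Capitals mark any match on either strand. The GC box was searched as GGGCGG. The box that KLF proteins are also known to bind was searched as CCACCC. The core of the cAMP response element was searched as TGACG, and the AP-1 site as TGANTCA. The binding site of the factor NF-Y was searched as CCAAT, and MEF2 and CArG boxes were searched by their usual consensus. Neighbouring matches can overlap and are then written as 1 run. The Klf2 and Klf6 windows stop where the GENCODE gene begins, 29 and 7 bases short.
Klf2: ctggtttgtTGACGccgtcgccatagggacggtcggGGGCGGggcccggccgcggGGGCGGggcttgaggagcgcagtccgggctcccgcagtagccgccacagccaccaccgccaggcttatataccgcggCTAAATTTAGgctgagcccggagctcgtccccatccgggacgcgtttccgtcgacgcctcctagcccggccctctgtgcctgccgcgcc
Klf4: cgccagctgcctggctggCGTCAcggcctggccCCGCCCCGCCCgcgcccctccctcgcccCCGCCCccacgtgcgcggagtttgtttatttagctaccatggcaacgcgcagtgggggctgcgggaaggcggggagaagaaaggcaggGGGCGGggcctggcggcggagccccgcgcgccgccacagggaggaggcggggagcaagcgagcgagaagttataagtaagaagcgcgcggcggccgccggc
Klf6: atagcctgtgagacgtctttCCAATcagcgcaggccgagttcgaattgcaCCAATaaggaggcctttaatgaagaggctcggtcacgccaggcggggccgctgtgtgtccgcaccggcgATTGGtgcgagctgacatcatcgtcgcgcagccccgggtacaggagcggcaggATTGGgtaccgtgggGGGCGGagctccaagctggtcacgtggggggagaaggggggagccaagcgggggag
Klf9: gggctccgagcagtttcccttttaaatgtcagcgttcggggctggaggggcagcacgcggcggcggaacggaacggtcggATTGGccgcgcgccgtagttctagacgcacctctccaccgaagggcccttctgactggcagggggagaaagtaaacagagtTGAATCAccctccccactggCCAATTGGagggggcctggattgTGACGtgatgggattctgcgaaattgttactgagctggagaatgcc
Klf13: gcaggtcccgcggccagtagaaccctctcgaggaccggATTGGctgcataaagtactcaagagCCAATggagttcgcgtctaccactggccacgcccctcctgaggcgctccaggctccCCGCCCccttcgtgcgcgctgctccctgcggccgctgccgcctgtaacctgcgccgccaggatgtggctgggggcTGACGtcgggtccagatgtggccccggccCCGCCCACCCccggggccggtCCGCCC
They span chr8:72318812-72319032 (plus strand) for Klf2, chr4:55532476-55532725 (minus) for Klf4, chr13:5861239-5861481 (plus) for Klf6, chr19:23140976-23141225 (plus) for Klf9 and chr7:63938916-63939165 (minus) for Klf13. Within 250 bases, a GC box was found in 6 of the 7 windows, against 32.7% of all 32851 windows in the table. A CACCC box was found in 4 of 7 (Klf2, Klf3, Klf7 and Klf13), against 28.1% of all windows. Only the Klf13 match can be seen above. That of Klf2, 19 bases before its RefSeq start, falls in the 29 bases left out, and the windows of Klf3 and Klf7 are not shown. The TGACG core was found in 4 of 7 (Klf2, Klf4, Klf9 and Klf13), against 17.8%. CCAAT was found in 3 of 7, among them 4 matches in Klf6, against 33.8%. Only Klf9 held an AP-1 match, 89 bases before its start, against 6.75% of windows, and only Klf2 held a MEF2 box, 118 bases before its start, against 2.92%. None held a CArG box, which 1.47% of windows did. These matches describe letters and not bound sites.

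At 2 h, Klf4, Klf5, Klf6, Klf7, Klf9 and Klf10 rose with both agents and in the libraries labelled 1,25D, and Klf2, Klf3 and Klf13 did not pass. Against vehicle, 6 of 9 factors rose in the libraries labelled 1,25D and none fell, with 7.07% of all 16413 tested genes called higher. With both agents 6 rose and none fell, where 9.9% of genes were called higher. A call means an adjusted p under 0.05 in edgeR's quasi-likelihood test. The median log2 fold change of the 9 factors was 0.77 in the libraries labelled 1,25D and 0.84 with both agents, beside 0 for all genes in either comparison. In the libraries labelled LPA 1 of 9 rose, where 0.597% of genes were called higher.

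**Figure D2:**
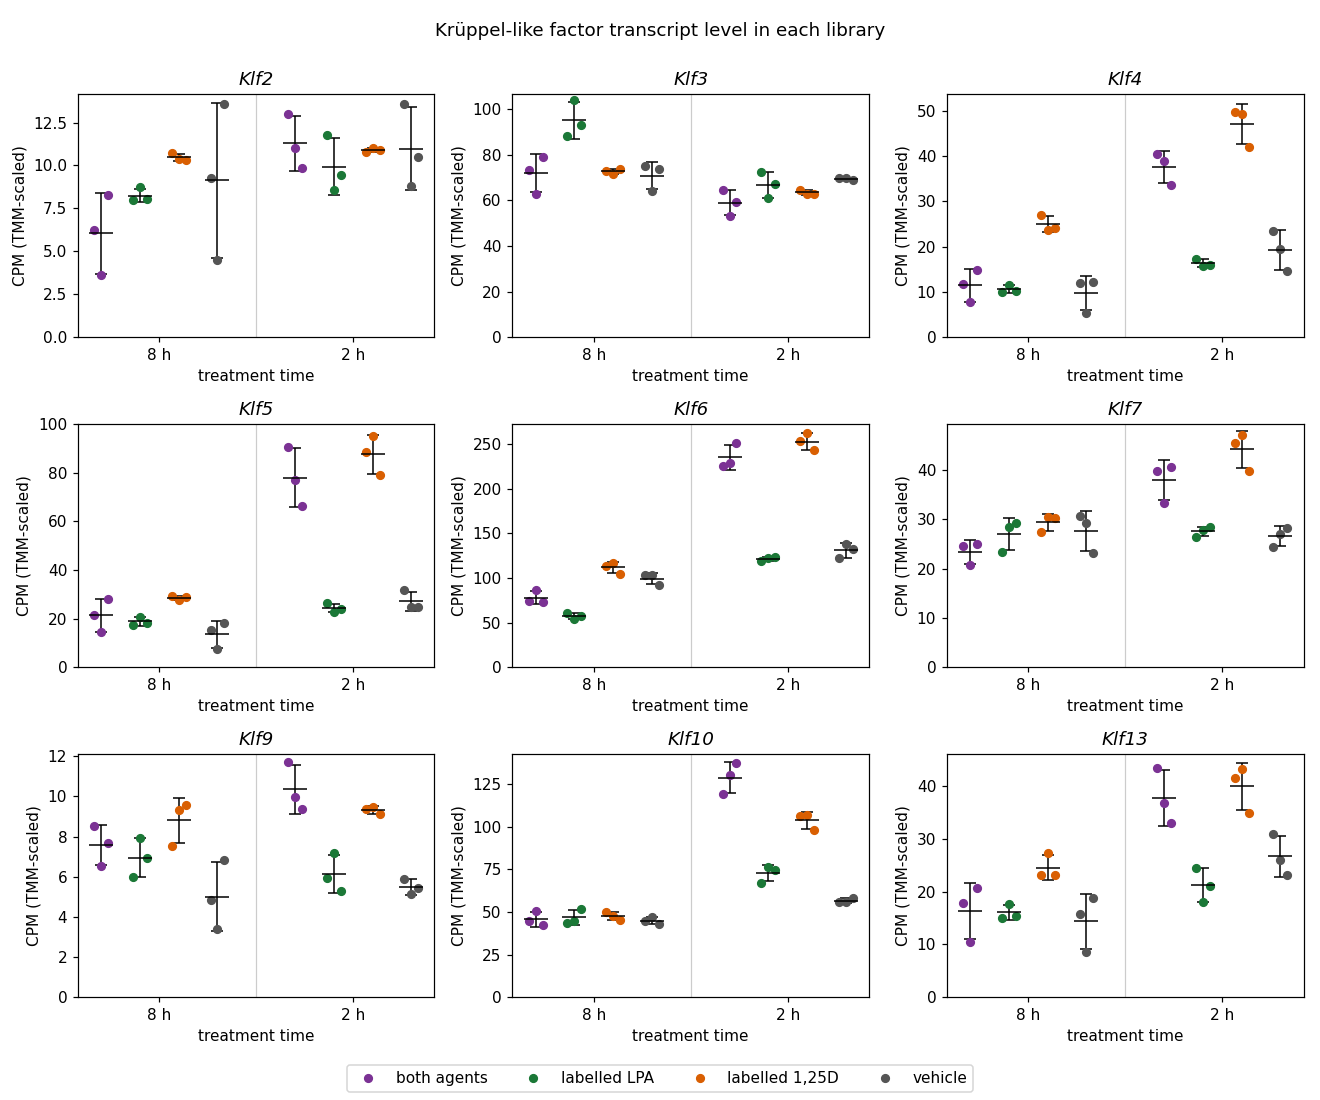
TMM-scaled CPM of each factor in every library (points), with the group mean and SD as bars. Within each time the groups run from both agents through labelled LPA and labelled 1,25D to vehicle, with 8 h on the left and 2 h on the right. Klf5 at 2 h lies between 66.4 and 95.1 CPM in the libraries with both agents or labelled 1,25D and at most at 31.6 CPM in the other 2 h libraries.

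Klf5, a factor that promotes proliferation in epithelia and smooth muscle, changed most at 2 h. It had 90.7, 76.8 and 66.4 CPM with both agents, 26.3, 22.7 and 24.1 CPM in the libraries labelled LPA and 88.5, 95.1 and 79.1 CPM in those labelled 1,25D, against 31.6, 24.6 and 25 CPM in vehicle. Every library with both agents or labelled 1,25D was above every vehicle library, while the libraries labelled LPA overlapped vehicle. The log2 fold change was 1.53 ± 0.22 (SE) with both agents (2.88-fold, adjusted p = 2.99e-05) and 1.69 ± 0.22 in the libraries labelled 1,25D (3.23-fold, adjusted p = 1.33e-05).

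Klf4, a pluripotency and epithelial differentiation factor, followed the same order. It had 40.4, 38.9 and 33.6 CPM with both agents, 17.4, 15.8 and 16 CPM in the libraries labelled LPA and 49.8, 49.4 and 42.1 CPM in those labelled 1,25D, against 23.5, 19.6 and 14.6 CPM in vehicle. The groups with both agents and labelled 1,25D did not overlap vehicle or each other, the second being the higher. Klf4 rose 1.96-fold with both agents (log2 0.97 ± 0.22, adjusted p = 0.00279) and 2.45-fold in the libraries labelled 1,25D (log2 1.29 ± 0.22, adjusted p = 0.000276). The difference between these groups, -0.32 ± 0.22, was not called (adjusted p = 0.748).

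Klf6, an injury-responsive factor first described as a core promoter binding protein, was the most abundant of the 9 by counts. It had 225, 229 and 251 CPM with both agents, 119, 122 and 123 CPM in the libraries labelled LPA and 253, 262 and 243 CPM in those labelled 1,25D, against 122, 138 and 133 CPM in vehicle. The log2 fold change was 0.84 ± 0.07 with both agents (1.79-fold) and 0.95 ± 0.07 in the libraries labelled 1,25D (1.93-fold). Its adjusted p was 1.54e-08 and 2.85e-09 in those comparisons, and the libraries labelled LPA lay within 0.11 of vehicle, at -0.11 ± 0.07.

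Klf7, known for neuronal and adipocyte differentiation, rose less. It had 39.9, 33.4 and 40.7 CPM with both agents and 45.5, 47.2 and 39.9 CPM in the libraries labelled 1,25D, against 24.5, 27.1 and 28.3 CPM in vehicle. The log2 fold changes were 0.51 ± 0.11 (adjusted p = 0.002) and 0.73 ± 0.11 (adjusted p = 8.82e-05), with no overlap with vehicle. With counts rebuilt from length-scaled TPM both calls were lost, at 0.25 (adjusted p = 0.339) with both agents and 0.50 (adjusted p = 0.0503) in the libraries labelled 1,25D, and the cause was not tested. A minor Klf7 transcript (Klf7-203) held 0% of the level with both agents at 2 h and 4.45% in the libraries labelled 1,25D, against 15.24% in vehicle. Annotated genes lie inside Klf7 on the other strand, and since the sources used here do not say whether counting used strand, their reads cannot be told apart from its own.

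Klf2, the factor of endothelial quiescence that MEF2 proteins drive, was not called in any comparison at 2 h. It had 13, 11 and 9.84 CPM with both agents, 11.8, 8.58 and 9.43 CPM in the libraries labelled LPA and 10.8, 11 and 10.9 CPM in those labelled 1,25D, against 13.6, 8.83 and 10.5 CPM in vehicle. The groups overlapped, and the SE of 0.27 on the log2 scale was the largest among the 9 factors. Klf2 has the most GC-rich transcript of the 9, at the 97th percentile of tested genes. Klf3, which recruits CtBP and represses, had 64.5, 53.3 and 59.1 CPM with both agents and 64.6, 62.9 and 62.7 CPM in the libraries labelled 1,25D, against 69.7, 69.6 and 68.9 CPM in vehicle. Both groups lay entirely below vehicle, yet the changes of -0.24 ± 0.09 (adjusted p = 0.0671) and -0.13 ± 0.09 (adjusted p = 0.399) were not called. After correction for GC content the first was -0.25 (adjusted p = 0.0385).

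Among the Sin3-binding factors, Klf10 was the single factor called in the libraries labelled LPA at 2 h. Klf10, also named TIEG for its early induction by TGF-beta, was first cloned from human osteoblasts, and mice without it have weak bones. It had 119, 130 and 137 CPM with both agents, 67.2, 76.2 and 74.6 CPM in the libraries labelled LPA and 106, 107 and 97.9 CPM in those labelled 1,25D, against 56, 55.8 and 58.1 CPM in vehicle. The 4 groups did not overlap. The log2 fold changes were 1.18 ± 0.08 with both agents (2.27-fold, adjusted p = 3.56e-10), 0.36 ± 0.08 in the libraries labelled LPA (1.28-fold, adjusted p = 0.0283) and 0.87 ± 0.08 in those labelled 1,25D (1.83-fold, adjusted p = 6.17e-08). The call in the libraries labelled LPA was lost without any 1 of the vehicle libraries or without replicate 2 or 3 of its own group, with changes of 0.33 to 0.38 and adjusted p of 0.0704 to 0.173. Both agents were above the libraries labelled 1,25D by 0.31 ± 0.08, which missed the threshold (adjusted p = 0.0762) and passed in DESeq2 (adjusted p = 0.0204).

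Klf9, which glucocorticoid and thyroid hormones induce, had 11.7, 9.95 and 9.4 CPM with both agents and 9.38, 9.49 and 9.11 CPM in the libraries labelled 1,25D, against 5.91, 5.13 and 5.42 CPM in vehicle. It rose 1.89-fold with both agents (log2 0.92 ± 0.18, adjusted p = 0.000883) and 1.7-fold in the libraries labelled 1,25D (log2 0.77 ± 0.18, adjusted p = 0.00609). Klf13, a factor of T cell and heart development, had 43.4, 36.7 and 33 CPM with both agents and 41.5, 43.2 and 34.9 CPM in the libraries labelled 1,25D, against 30.9, 25.9 and 23.2 CPM in vehicle. No library of either group overlapped vehicle, but the changes of 0.50 ± 0.22 (adjusted p = 0.121) and 0.58 ± 0.22 (adjusted p = 0.086) were not called. Klf13 passed in the libraries labelled 1,25D in DESeq2 (adjusted p = 0.0461), and in both groups after correction for GC content (adjusted p = 0.0327 and 0.0245). Genes annotated on the other strand lie within Klf13 as well.

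**Figure D3:**
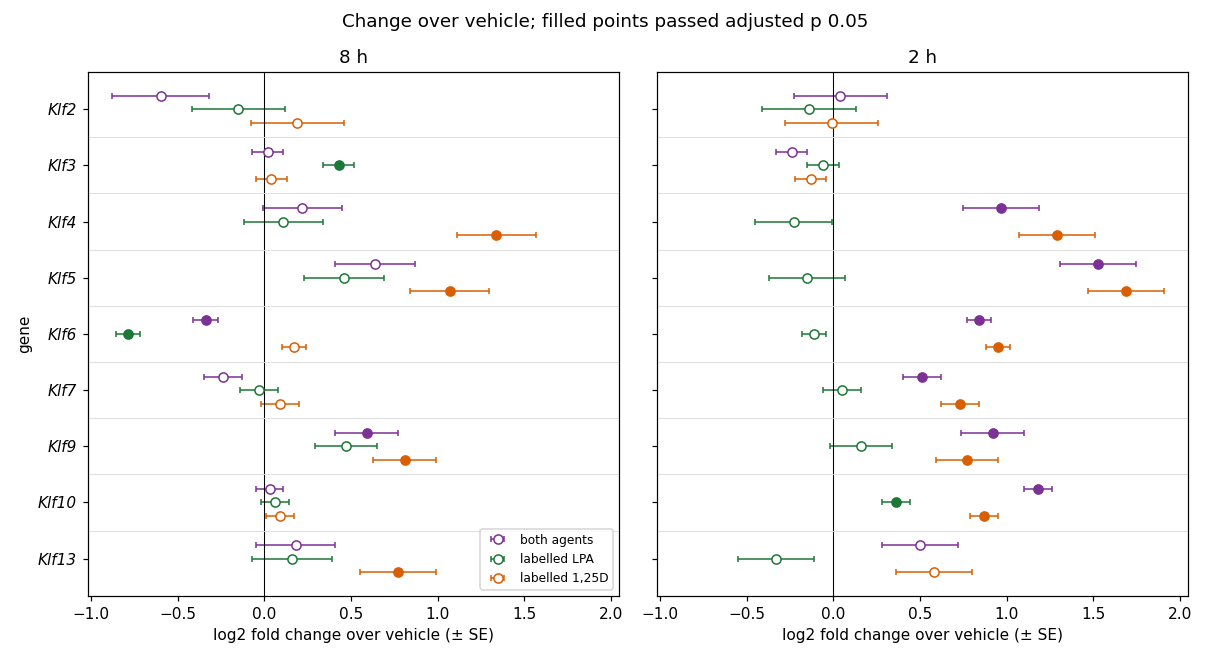
Log2 fold change over vehicle with its SE for the 9 factors, at 8 h on the left and at 2 h on the right, in the libraries with both agents, labelled LPA and labelled 1,25D. Filled points passed an adjusted p of 0.05. Most filled points lie right of zero at 2 h, with Klf5 highest at 1.69 in the libraries labelled 1,25D, while Klf6 lies left of zero at 8 h in the libraries labelled LPA at -0.79.

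Set against the single treatments at 2 h, both agents differed from the libraries labelled LPA and not detectably from those labelled 1,25D. Against the libraries labelled LPA, 7 of 9 factors were higher with both agents and none lower, where 9.23% of genes were called higher. The changes were led by Klf5 at 1.68 ± 0.22 and Klf4 at 1.20 ± 0.22, and included Klf13 at 0.83 ± 0.22 (adjusted p = 0.0102). The Klf13 call was lost without replicate 2 labelled LPA (0.71, adjusted p = 0.0612) or without replicate 1 of both agents (0.72, adjusted p = 0.0572). Against the libraries labelled 1,25D, 0 of 9 were called in edgeR, where 0.768% of genes were. At an unadjusted p under 0.05 there was 1, Klf10, and DESeq2 called 1. The interaction, which is both agents minus labelled LPA minus labelled 1,25D plus vehicle on the log2 scale, gave 0 of 9 at 2 h in edgeR, 0 at an unadjusted p under 0.05 and 0 in DESeq2, where 0.0366% of genes were called. For Klf5 it was -0.02 ± 0.31, for Klf6 0.01 ± 0.10 and for Klf10 -0.05 ± 0.11. These comparisons share libraries with those against vehicle.

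At 8 h the 3 treatments gave different sets of called factors. In the libraries labelled 1,25D, 4 of 9 factors rose and none fell, where 7.9% of genes were called higher. Klf3 rose and Klf6 fell in the libraries labelled LPA, which makes 2 of 9 called, where 12% of genes were. With both agents, Klf9 rose and Klf6 fell, again 2 of 9, where 16.8% of genes were called. The median changes of the 9 factors were 0.03 with both agents, 0.11 labelled LPA and 0.19 labelled 1,25D, beside 0.03, 0 and 0 for all genes.

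Klf4 at 8 h rose in the libraries labelled 1,25D. It had 11.7, 7.77 and 14.9 CPM with both agents, 10, 11.6 and 10.3 CPM in the libraries labelled LPA and 27.1, 23.8 and 24.2 CPM in those labelled 1,25D, against 11.9, 5.49 and 12.2 CPM in vehicle. Its change in the libraries labelled 1,25D was 1.34 ± 0.23 (2.53-fold, adjusted p = 0.000314), and the other 2 groups overlapped vehicle. Without both replicate 2 libraries it was 1.06 (adjusted p = 3.79e-05). Both agents were below the libraries labelled 1,25D by 1.12 on the log2 scale, at -1.12 ± 0.23 (adjusted p = 0.00199), with no overlap, and each alternative listed for this comparison kept the call. Klf5 had 21.6, 14.5 and 27.9 CPM with both agents, 17.6, 20.9 and 18.3 CPM in the libraries labelled LPA and 29.4, 27.8 and 28.8 CPM in those labelled 1,25D, against 15.4, 7.51 and 18.1 CPM in vehicle. It rose by 1.07 ± 0.23 in the libraries labelled 1,25D (2.09-fold, adjusted p = 0.00247), and by 0.78 without both replicate 2 libraries (adjusted p = 0.000564). With the compared groups only, this call was lost (1.07, adjusted p = 0.0918). The change with both agents, 0.64 ± 0.23, missed the threshold (adjusted p = 0.0569), and without both replicate 2 libraries that stood apart it was 0.56 (adjusted p = 0.0136). Without vehicle replicate 2 alone it was 0.33 (adjusted p = 0.292).

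Klf6 ran the other way at 8 h. It had 74.7, 86.2 and 73.5 CPM with both agents, 60.4, 54.4 and 57.8 CPM in the libraries labelled LPA and 114, 117 and 105 CPM in those labelled 1,25D, against 103, 103 and 92 CPM in vehicle. None of the 4 groups overlapped another, and the libraries labelled LPA were lowest. Klf6 fell by 0.79 on the log2 scale in the libraries labelled LPA, at -0.79 ± 0.07 (adjusted p = 7.4e-08), and by 0.34 with both agents, at -0.34 ± 0.07 (adjusted p = 0.00148). The difference of 0.17 ± 0.07 in the libraries labelled 1,25D was not called (adjusted p = 0.1). Both agents lay between the single treatments, 0.44 ± 0.07 above labelled LPA (adjusted p = 0.000153) and at -0.52 ± 0.07 against labelled 1,25D (adjusted p = 2.93e-05). These calls were kept without both replicate 2 libraries that stood apart, where Klf6 was at -0.78 labelled LPA (adjusted p = 6.11e-08) and -0.40 with both agents (adjusted p = 0.00139). With the compared groups only, the call with both agents against vehicle was lost (-0.35, adjusted p = 0.0964).

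Klf3 was raised at 8 h in the libraries labelled LPA. It had 73.4, 62.8 and 79.1 CPM with both agents, 88.1, 104 and 92.8 CPM in the libraries labelled LPA and 72.6, 71.6 and 73.6 CPM in those labelled 1,25D, against 74.9, 64 and 73.5 CPM in vehicle. The rise was 0.43 ± 0.09 (1.34-fold, adjusted p = 0.00211), and each library labelled LPA was above all other 8 h libraries. Both agents were lower than labelled LPA, at -0.41 ± 0.09 (adjusted p = 0.0022). Without both replicate 2 libraries these changes were 0.34 (adjusted p = 0.00843) and -0.30 (adjusted p = 0.0143). With counts from length-scaled TPM they were 0.31 (adjusted p = 0.0536) and -0.28 (adjusted p = 0.0642). With the compared groups only, both calls were lost as well (0.43, adjusted p = 0.0805, and -0.41, adjusted p = 0.0721). A gene on the other strand overlaps Klf3, and a retained-intron transcript held 24.92% of its level on average.

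Klf9 and Klf13, both of the Sin3-binding branch, rose in the libraries labelled 1,25D at 8 h. Klf9 had 8.52, 6.54 and 7.68 CPM with both agents, 6.01, 7.93 and 6.92 CPM in the libraries labelled LPA and 7.54, 9.31 and 9.59 CPM in those labelled 1,25D, against 4.85, 3.38 and 6.82 CPM in vehicle. Its change was 0.81 ± 0.18 labelled 1,25D (1.75-fold, adjusted p = 0.00438) and 0.59 ± 0.18 with both agents (1.51-fold, adjusted p = 0.0299), while the both-agent libraries overlapped vehicle. Without both replicate 2 libraries the change labelled 1,25D was 0.60 (adjusted p = 0.0152). With the compared groups only, neither call was kept, at 0.81 labelled 1,25D (adjusted p = 0.107) and 0.58 with both agents (adjusted p = 0.267). The call with both agents was lost without replicate 1 or 3 of both agents (0.49 and 0.57) or replicate 1 or 2 of vehicle (0.55 and 0.35), with adjusted p of 0.0656 to 0.18. Without vehicle replicate 3 the change with both agents was 0.88, and without both replicate 2 libraries 0.47 (adjusted p = 0.0814).

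Klf13 had 17.9, 10.4 and 20.7 CPM with both agents and 23.2, 27.3 and 23.1 CPM in the libraries labelled 1,25D, against 15.7, 8.66 and 18.8 CPM in vehicle. The libraries labelled 1,25D were all above vehicle, by 0.77 ± 0.22 (1.71-fold, adjusted p = 0.0227). The call was lost without vehicle replicate 2 (0.51, adjusted p = 0.15) or replicate 2 labelled 1,25D (0.69, adjusted p = 0.081), with length-scaled TPM (0.58, adjusted p = 0.157) and with the compared groups only (0.77, adjusted p = 0.151). Without both replicate 2 libraries it was kept (0.52, adjusted p = 0.0244). Klf7 and Klf10 were not called against vehicle at 8 h. Klf10 had 42.1 to 50.3 CPM with both agents, 43.5 to 51.9 CPM labelled LPA and 45.4 to 49.9 CPM labelled 1,25D, against 42.7 to 47 CPM in vehicle, so that all 8 h groups overlapped.

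Klf2 at 8 h was the factor whose values moved most with the libraries that stood apart. It had 6.26, 3.61 and 8.28 CPM with both agents, 8.01, 8.72 and 8.03 CPM in the libraries labelled LPA and 10.7, 10.4 and 10.3 CPM in those labelled 1,25D, against 9.25, 4.53 and 13.6 CPM in vehicle. The replicate 2 libraries gave the lowest value in both groups. The change of -0.60 ± 0.28 with both agents was not called (adjusted p = 0.167). It was -0.94 (adjusted p = 0.00878) without vehicle replicate 2, -0.66 (adjusted p = 0.0257) without both replicate 2 libraries, and -0.70 (adjusted p = 0.00328) after correction for GC content. That correction also gave calls labelled LPA against vehicle (-0.46, adjusted p = 0.0492) and for both agents against labelled 1,25D (-0.62, adjusted p = 0.015). With all libraries and no correction, the latter comparison passed in DESeq2 (-0.8, adjusted p = 0.0294). Without the filter on low counts it passed in edgeR (-0.79, adjusted p = 7.16e-06). So did both agents against vehicle (-0.61, adjusted p = 0.00144) and against labelled LPA (-0.46, adjusted p = 0.0261), and the interaction (-0.64, adjusted p = 0.0292). After correction for GC content the interaction was -0.15 (adjusted p = 0.669) and both agents against labelled LPA -0.24 (adjusted p = 0.315). Without both replicate 2 libraries the interaction was -0.05 (adjusted p = 0.957). In that setting both agents were at -0.17 against labelled LPA (adjusted p = 0.618) and -0.54 against labelled 1,25D (adjusted p = 0.0902). Why the Klf2 values moved with the replicate 2 libraries was not tested.

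At 8 h the interaction was called for 2 of 9 factors, both lower, where 3.64% of all genes were called lower. Klf4 had an interaction of -1.23 ± 0.32 (adjusted p = 0.0396) and Klf3 one of -0.44 ± 0.12 (adjusted p = 0.0438). Without the replicate 2 libraries of both agents and of vehicle, Klf4 stood at -0.72 ± 0.21 (adjusted p = 0.204) and Klf3 at -0.28 ± 0.12 (adjusted p = 0.341). In that setting 26 genes of the whole table were called for the interaction, against 1271 with all libraries. Leaving out single libraries gave between 0 and 7 called factors, 0 of them without vehicle replicate 2, without replicate 1 or 2 of both agents, without replicate 2 or 3 labelled LPA, or without any 1 labelled 1,25D, and 7 without vehicle replicate 3. Correction for GC content kept both calls, at -1.15 ± 0.28 (adjusted p = 0.0243) and -0.43 ± 0.12 (adjusted p = 0.0306). Both agents against each single treatment at 8 h gave 1 factor higher and 1 lower against labelled LPA (Klf6 and Klf3), where 22.9% of genes were called. Against labelled 1,25D, 2 factors were lower and none higher (Klf4 and Klf6), where 3.44% of genes were called lower.

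**Figure D4:**
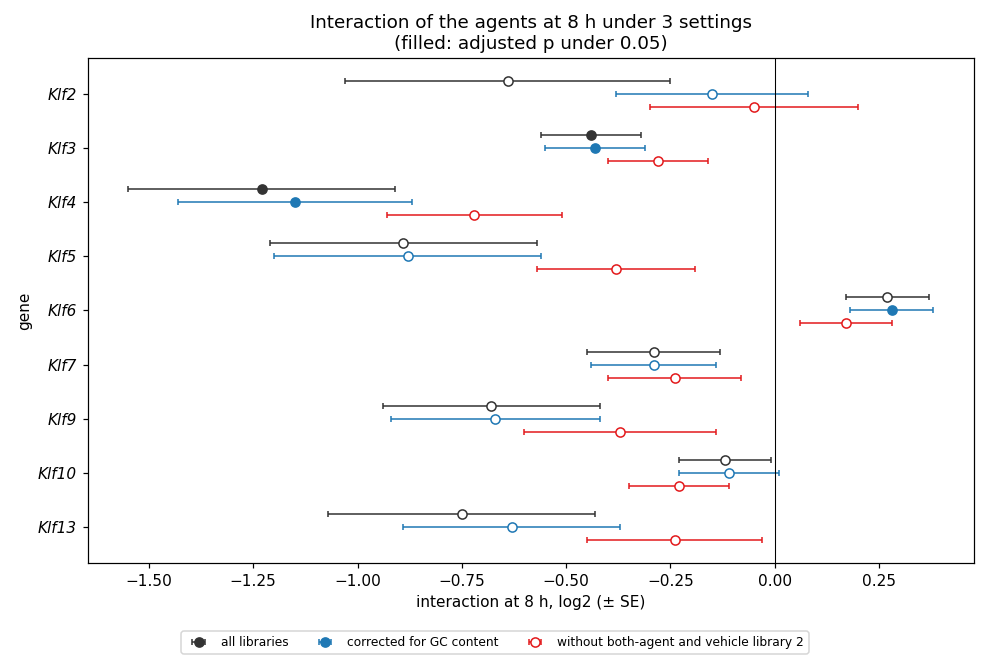
Interaction of the agents at 8 h (both agents minus labelled LPA minus labelled 1,25D plus vehicle, log2, with SE) for the 9 factors with all libraries, after correction for GC content, and without replicate 2 of both agents and of vehicle. Filled points passed an adjusted p of 0.05. Klf4 lies at -1.23, -1.15 and -0.72 in those settings, and no factor is filled without the replicate 2 libraries.

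The treatment effects were compared between times by subtracting the 2 h effect from the 8 h effect. With both agents, the effect was lower at 8 h for 3 of 9 factors, where 4.11% of genes were called lower. Those were Klf6 at -1.19 ± 0.10 (adjusted p = 6.65e-08), Klf10 at -1.16 ± 0.11 (adjusted p = 4.29e-07) and Klf7 at -0.75 ± 0.16 (adjusted p = 0.00347). For the libraries labelled 1,25D the same 3 factors were called lower, where 2.84% of genes were: Klf10 at -0.78 ± 0.11, Klf6 at -0.77 ± 0.10 and Klf7 at -0.64 ± 0.16 (adjusted p = 0.000127, 4.98e-05 and 0.0204). These comparisons share the vehicle libraries. The Klf7 difference labelled 1,25D was lost without any of 5 single libraries, namely replicate 1 or 2 labelled 1,25D at 2 h, replicate 1 labelled 1,25D at 8 h, or replicate 1 of vehicle at either time (-0.56 to -0.62, adjusted p of 0.0502 to 0.0784). It was also lost with the compared groups only (-0.63, adjusted p = 0.0554). With counts from length-scaled TPM both Klf7 differences were lost, at -0.47 (adjusted p = 0.272) with both agents and -0.39 (adjusted p = 0.45) labelled 1,25D.

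For Klf4, Klf9 and Klf13 the effect labelled 1,25D differed between times by 0.05 ± 0.31, 0.04 ± 0.26 and 0.19 ± 0.31, none of them called. For Klf5 the difference was -0.63 ± 0.31 (adjusted p = 0.318), and -0.92 (adjusted p = 0.0473) without vehicle replicate 2 at 8 h. In the libraries labelled LPA, 2 of 9 were called, where 6.75% of genes were. Klf6 was at -0.67 ± 0.10 (adjusted p = 0.000274) and Klf3 at 0.48 ± 0.12 (adjusted p = 0.0245). The Klf3 difference missed the threshold without replicate 2 or 3 labelled LPA at 2 h, replicate 2 labelled LPA at 8 h, vehicle replicate 1 at 2 h or vehicle replicate 2 at 8 h (0.40 to 0.48, adjusted p of 0.0525 to 0.0954).

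The vehicle cultures also differed between times, with 5 of 9 factors lower at 8 h than at 2 h and none higher, where 8.71% of genes were called lower. The changes were -0.98 ± 0.23 for Klf5, -0.96 ± 0.23 for Klf4, -0.89 ± 0.22 for Klf13, -0.40 ± 0.07 for Klf6 and -0.34 ± 0.08 for Klf10, with adjusted p of 0.000519 to 0.0094. None of these genes overlapped between the times, which adds little, since they were picked by their calls in this same comparison. Without vehicle replicate 2 at 8 h the change of Klf4 was -0.66 and that of Klf13 was -0.62 (adjusted p = 0.0702). With the compared groups only, all 5 calls were lost (adjusted p of 0.0674 to 0.17). That of Klf10 was also lost with counts from length-scaled TPM (-0.32, adjusted p = 0.0952). Klf7, at 0.06 ± 0.11, and Klf3, at 0.03 ± 0.09, did not pass.

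Over the 8 group means of log2 CPM, the factors that followed each other most closely were Klf4 with Klf13 (Pearson r = 0.98), Klf4 with Klf5 (0.96) and Klf5 with Klf13 (0.96). The r of Klf3 with each of the others was negative, from -0.33 with Klf9 to -0.87 with Klf6. Among genes averaging 1 CPM or more, the closest to Klf10 was Slc5a3, the sodium and myo-inositol cotransporter gene (r = 0.9997), the closest to Klf5 was Yrdc (0.9976), to Klf13 Fhl3 (0.9957), to Klf6 Dnm3os (0.9948), to Klf4 Efnb2 (0.9931), to Klf3 Usp21 (0.9911) and to Klf9 Runx1 (0.9904). Lower likeness was found for Klf7, closest to the early response gene Egr3 (0.9756), and for Klf2, closest to Lrig3 (0.9458). The second gene closest to Klf13 was a relative, Klf16 (0.9937). With 8 points that share libraries and depth, these values describe the groups and carry no test.

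The counts from further gene lists below stand beside the share of all genes called in either direction against vehicle. These lists were chosen with earlier results of these data known, so a count above that share may come from the choice and carries no test. At 2 h that share was 19.9% with both agents, 0.786% labelled LPA and 13.9% labelled 1,25D, and at 8 h it was 16.8%, 12% and 16.2% in the same order.

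Of the 17 other genes of the KLF and SP family, 12 were above the filter. Klf11, a Sin3-binding relative of Klf10, was lower in 5 of the 6 comparisons with vehicle. Its changes were -0.89 ± 0.10 with both agents and -0.43 ± 0.09 labelled 1,25D at 2 h, and -0.90 ± 0.09, -0.65 ± 0.09 and -0.38 ± 0.09 with both agents, labelled LPA and labelled 1,25D at 8 h. Labelled LPA at 2 h it was -0.28 ± 0.09 (adjusted p = 0.19). Sp8, a developmental limb factor, rose at 2 h by 1.14 ± 0.34 with both agents and 1.45 ± 0.34 labelled 1,25D, and Sp4 fell at 8 h with both agents, at -0.62 ± 0.12. No other member of that list passed against vehicle.

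In the ERK5 and MEF2 route known to drive Klf2 and Klf4, 7 of 8 genes were above the filter. Among them Mef2a, a MEF2 transcription factor, moved in opposite directions at the 2 times with both agents. At 2 h it rose by 0.76 ± 0.06 with both agents (adjusted p = 7.51e-09) and 0.78 ± 0.06 labelled 1,25D (adjusted p = 5.35e-09). At 8 h it fell with both agents, at -0.26 ± 0.06, and labelled LPA, at -0.29 ± 0.06. It was not called labelled 1,25D at 8 h (0.01 ± 0.06, adjusted p = 0.932) or labelled LPA at 2 h (-0.02 ± 0.06, adjusted p = 0.903). Map2k5, the kinase that activates ERK5, fell with both agents at 2 h, at -0.36 ± 0.12, and Mef2c fell at 8 h with both agents, at -0.44 ± 0.09, and labelled 1,25D, at -0.27 ± 0.09. Mef2d rose labelled 1,25D at 8 h, at 0.74 ± 0.22, and nothing in this list was called labelled LPA at 2 h.

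All 16 genes for corepressors, acetylases and ubiquitin ligases that bind KLF proteins were above the filter. At 2 h, 3 rose with both agents, among them Siah1a at 0.26 ± 0.08 and Wwp1 at 0.24 ± 0.08, 0 changed labelled LPA and 2 rose labelled 1,25D (Wwp1 at 0.24 ± 0.08 and the acetylase gene Kat2b at 0.46 ± 0.14). These counts of 3 and 2 out of 16 lie near the 19.9% and 13.9% of all genes called. At 8 h, 1 rose and 1 fell with both agents, 3 rose and 1 fell labelled LPA, and 2 fell labelled 1,25D. With both agents and labelled 1,25D that is 2 of 16, below the 16.8% and 16.2% of all genes. The 3 higher and 1 lower out of 16 labelled LPA stand beside 12% of all genes. Siah1a, a ubiquitin ligase gene, was highest at 8 h, at 0.59 ± 0.08 with both agents and 0.82 ± 0.08 labelled LPA. Hdac1, a deacetylase gene, fell with both agents, at -0.27 ± 0.09, and labelled 1,25D, at -0.40 ± 0.09.

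Of 20 genes that have been reported as KLF targets in other cells, 17 were above the filter. At 2 h, 9 rose and 2 fell with both agents, 2 rose labelled LPA, and 9 rose and 2 fell labelled 1,25D, with median changes of 0.23, 0.03 and 0.38 beside 0 for all genes in each. Ccn2, a matricellular growth factor gene, rose by 1.83 ± 0.10 with both agents and by 1.83 ± 0.10 labelled 1,25D, and S1pr1, a sphingosine 1-phosphate receptor that Klf2 drives in T cells, rose by 1.61 ± 0.09 and 1.52 ± 0.09. At 8 h, 7 rose and 2 fell with both agents, 5 rose and 4 fell labelled LPA, and 8 rose and 2 fell labelled 1,25D, which makes 9, 9 and 10 of 17 called where 16.8%, 12% and 16.2% of all genes were. Thbd, the thrombomodulin gene that Klf2 and Klf4 drive in endothelium, rose by 1.03 ± 0.08 with both agents and 1.09 ± 0.08 labelled LPA. Plau, the urokinase gene, fell in both, at -0.85 ± 0.11 and -0.94 ± 0.11. Many of these genes respond to other factors as well, and the list was chosen with earlier results of these data known.

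Klf9 is a known glucocorticoid target, and 6 of 7 genes with that property were above the filter. At 2 h, 2 rose and 2 fell with both agents, 1 rose labelled LPA, and 3 rose and 2 fell labelled 1,25D, out of 6, where 19.9%, 0.786% and 13.9% of all genes were called. At that time Sgk1, a kinase gene, rose by 1.05 ± 0.08 with both agents and 1.64 ± 0.08 labelled 1,25D, and Dusp1, a MAP kinase phosphatase gene, by 1.76 ± 0.12 and 1.40 ± 0.12. Tsc22d3, which encodes GILZ, fell in the same comparisons, at -0.44 ± 0.09 and -0.55 ± 0.09, and so did Fkbp5, at -0.44 ± 0.07 and -0.23 ± 0.07. At 8 h, Dusp1 rose by 1.52 ± 0.12 with both agents and 1.26 ± 0.12 labelled LPA, and Tsc22d3 fell in all 3 treatments, at -0.55 ± 0.09 with both agents, -0.55 ± 0.09 labelled LPA and -0.40 ± 0.09 labelled 1,25D.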

How the data were processed

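Per the labels, RNA from 24 libraries of Ocy454 cells was sequenced, and groups and replicate numbers were taken from the sample titles. The authors deposited estimated counts and TPM per transcript; the build was mm39 per the submitters' processing notes, and no quantifier is named in the sources used here. Estimated counts were summed per gene with GENCODE M21 (GRCm38) names and rounded. The edgeR 4.0.16 quasi-likelihood test (R 4.3.3, TMM scaling, minimum count of 10) was fitted to all 8 groups, with Benjamini-Hochberg adjustment over 16413 genes and a threshold of 0.05. It was tested on simulated data. DESeq2 1.42.0, other scaling, no filter, the compared groups only, a replicate block, length-scaled TPM and leaving out each library were alternatives. A correction for GC content and leaving out both number 2 libraries together were chosen after seeing the data. The 9 factors and all gene lists were chosen with earlier results of these data known. All 9 factors could be named, and from each list at most 2 risers and 2 fallers per comparison with the smallest p. No sample was left out of the tests, and 0 columns lacked a sample. Replicates differed by more than counting noise (chi-square per degree of freedom of 6.58 to 119).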

Additional observations from a re-analysis of the deposited data

Results flagged for a closer look

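Each result here is a difference between effects that passed edgeR's quasi-likelihood test of the difference itself, with Benjamini-Hochberg adjustment. The effect of the agents together at 8 h differed from the sum of the single treatments for Klf4, at -1.23 (adjusted p = 0.0396), and for Klf3, at -0.44 (adjusted p = 0.0438). Each of these calls was lost under 11 of 20 alternatives, and without the replicate 2 libraries of both agents and of vehicle the values were -0.72 (adjusted p = 0.204) and -0.28 (adjusted p = 0.341). Effects at 8 h minus those at 2 h with both agents were -1.19 for Klf6, -0.75 for Klf7 and -1.16 for Klf10. Labelled LPA they were 0.48 for Klf3 and -0.67 for Klf6. Labelled 1,25D they were -0.77 for Klf6, -0.64 for Klf7 and -0.78 for Klf10. The differences of Klf3 labelled LPA and of Klf7 labelled 1,25D were each lost under 7 of 20 alternatives. That of Klf7 with both agents was lost under 1 of 20, with length-scaled TPM (-0.47, adjusted p = 0.272).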

How the results depend on the processing

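Of 47 calls over 9 factors and 16 comparisons, 25 were kept under every alternative run, 22 were lost under at least 1 and 0 turned direction. Of 1534 alternatives to the 97 values that did not pass, 71 passed and 106 had the other sign, 0 of them both. Counts of called factors moved by over 1.5 times as follows, and the cause was not tested. Without the filter on low counts they were 0 labelled LPA at 2 h (1 in the result reported), 4 labelled LPA at 8 h (2), 4 with both agents at 8 h (2), 5 for both agents against labelled 1,25D at 8 h (2), 6 for the interaction at 8 h (2), 4 for the time difference labelled LPA (2) and 5 for that of both agents (3). With length-scaled TPM they were 0 labelled LPA at 2 h, 1 labelled LPA at 8 h, 1 for both agents against labelled LPA at 8 h, 0 for the interaction at 8 h and 1 for the time difference labelled LPA. With the compared groups only, which leaves fewer samples to estimate the spread, they were 0 labelled LPA at 2 h, 1 labelled LPA, 1 labelled 1,25D (4) and 0 with both agents at 8 h, 1 for both agents against labelled LPA at 8 h, 0 for the interaction at 8 h, 1 for the time difference labelled LPA and 0 for vehicle at 8 h against 2 h (5). DESeq2 gave 1 for both agents against labelled 1,25D at 2 h (0), 4 for the same at 8 h and 4 for the interaction at 8 h. Correction for GC content gave 5 for both agents against labelled 1,25D at 8 h. Without both number 2 libraries there were 0 for the interaction at 8 h and 5 for the time difference of both agents.

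Leaving out 1 library at a time gave 0 to 1 labelled LPA, 6 to 6 labelled 1,25D and 6 to 7 with both agents at 2 h, and 6 to 7 and 0 to 1 for both agents against labelled LPA and labelled 1,25D, with 0 to 0 for the interaction. At 8 h it gave 2 to 4, 3 to 4 and 1 to 4 in the same order against vehicle, 2 to 2 and 2 to 4 for both agents against the single treatments and 0 to 7 for the interaction. The time differences gave 1 to 2 labelled LPA, 2 to 4 labelled 1,25D and 3 to 5 with both agents, and vehicle at 8 h against 2 h gave 4 to 5. Over all genes, the median of 36 correlations between same-numbered libraries was -0.00247 and 2 were over 0.1. Both were between both agents and vehicle at 8 h, which correlated by 0.0729, 0.356 and 0.254 for numbers 1, 2 and 3, so that not every pair there was over 0.1 and the numbers were not taken as pairs. In all, 9 of 24 libraries correlated best with their own number. With the replicate block, Klf5 with both agents at 8 h passed (0.65, adjusted p = 0.0498), which made 3 called factors in place of 2, and the interaction at 8 h kept its count of 2.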
